A study of Drosophila melanogaster with 8 samples.

Results

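Gene expression in larvae lacking a minor-spliceosomal snRNA was compared with that in larvae lacking Smn. The comparison set 4 mRNA libraries, 2 from the U12Δ/Δ strain and 2 from the U6atacΔ/Δ strain, as one group against 2 libraries of the SmnΔ/Δ strain, out of 8 libraries in the series. The remaining 2 libraries are of the WT strain, w1118, and are given beside the others as the level of the unmutated background. Each library was made from the RNA of pooled whole larvae, labelled L3, the last larval instar, and, in the methods of the study, as wandering. The deletions of U12, U6atac and Smn were homozygous. They were made with CRISPR/Cas9 and outcrossed to the WT strain, and the homozygotes were picked as the larvae that lacked a GFP balancer chromosome. Each strain is 1 deletion allele, and its 2 libraries, which the study calls biological repeats, are of larvae picked at random from vials. Nothing in the labels says that the cultures were separate, so the p values measure only the spread between these libraries. Of 17473 genes in the tables, 11235 had a mean of at least 1 TPM (reads per gene length, scaled to the same total in every library) over the 6 libraries and were tested. CG11249 was the last gene inside this limit, at 1.0013 TPM, and CR30409 the first outside it, at 0.99993 TPM. In 6039 of the tested genes all 4 libraries of the minor snRNA deletions lay on one side of both SmnΔ/Δ libraries. These genes are described below, with genes of the lists and genes named by the study that lie outside this set.

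U12 and U6atac are RNAs of the minor spliceosome, which removes a small class of introns, called U12-type, from the transcripts of a few host genes. All other introns are removed by the major spliceosome. Smn is the core protein of a complex that loads Sm proteins on the snRNAs of both machineries, and loss of its human counterpart causes spinal muscular atrophy. In the last larval instar of Drosophila, pulses of the steroid hormone ecdysone turn on the storage proteins of the fat body and then the glue proteins of the salivary gland, while the epidermis changes the cuticle proteins that it secretes at each moult.

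U12-type introns start with a long conserved sequence. In the table of sensitive introns of the study, 14 of the 15 U12-type introns start with ATATCCT or GTATCCT, and 0 of the 48 other introns listed there do. The study states that most known U12-type introns were predicted from consensus sequences. This split is thus not independent of how the class was drawn. The first 20 bases of the introns of 4 host genes that are described below are shown 5′ to 3′, with the first 7 in capitals, because their levels differ in how they compare between the strains. Positions are of dm6.
Kcmf1, chr3R:9012306-9012836, minus strand: ATATCCTttttcaaacagac
nmo, chr3L:8045947-8046569, plus strand: GTATCCTttttacaatatga
Sf3a1, chr3R:17002029-17002150, minus strand: GCATCCTttgccaaaaagaa
pros, chr3R:11377218-11378034, plus strand: ATATCCTtttacaaacaaat
Sf3a1, a protein of the U2 snRNP of the major spliceosome, has the intron that starts differently from the others. Kcmf1 is a ubiquitin ligase, nmo (nemo) a protein kinase of Wnt signalling and pros (prospero) a transcription factor of neuronal differentiation.

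The deposited TPM values divide most read counts by the length of another gene, so the values below are TPM recomputed from the recovered reads and each gene's own length. The libraries held between 23392379 and 28789355 reads in genes. The 10 genes with the highest TPM took between 17.5% and 24.6% of the TPM in the minor snRNA deletions, 14.5% and 15.1% in SmnΔ/Δ and 16.7% and 18.9% in WT. Across genes, the Spearman correlation was between 0.917 and 0.974 among the 4 libraries of the minor snRNA deletions, between 0.766 and 0.811 between them and SmnΔ/Δ, and 0.950 between both SmnΔ/Δ libraries, and the first principal component, with 72.3% of the variance, put both SmnΔ/Δ libraries on one side and the 4 others on the other side. The U12 snRNA gene had no read in either U12Δ/Δ library, 9 and 15 reads in U6atacΔ/Δ, 11 and 5 in SmnΔ/Δ and 28 and 10 in WT. The U6atac snRNA gene had no read in any of the 8 libraries, so these mRNA libraries cannot check that label. Smn was present in all libraries, with 20.8 and 19.4 TPM in U12Δ/Δ and 11.9 and 15.3 TPM in U6atacΔ/Δ, against 8.58 and 15.3 TPM in SmnΔ/Δ and 42.7 and 32.7 TPM in WT. Its level in SmnΔ/Δ was the lowest of the strains in one library and close to the higher U6atacΔ/Δ library in the other, and since the ends of the deletion are not given in the sources used here, it is not known whether the reads lie outside the deleted part.

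In the 6 libraries, 427 genes were higher and 2344 lower in the minor snRNA deletions than in SmnΔ/Δ at an adjusted p under 0.05 (limma on log2(TPM + 1)), which is 3.8% and 20.9% of the genes tested. All 4 libraries lay above both SmnΔ/Δ libraries for 894 genes, 7.96% of those tested, and below both for 5145, 45.8%. This count is a description of the measured values and was not tested. All 2771 genes called in TPM lay on one side in this way, so a lack of overlap adds nothing to a call. The median difference over all genes was −0.45 on the log2 scale, so a gene at −0.45 lies at the middle of all genes. When the libraries were scaled by median ratios, this median was 0.03, and of 11136 genes tested 864 (7.76%) were higher and 933 (8.38%) lower, with all 4 libraries above for 2752 genes (24.7%) and below for 2361 (21.2%). Of the genes past the threshold in TPM, 419 higher and 933 lower kept their call after scaling, and none changed direction among those called in both. Among all calls in TPM, 174 genes were at least 4-fold higher and 609 at least 4-fold lower on the log2(TPM + 1) scale, a scale that understates the changes of low genes. In the plot of all genes, the highest differences, as in Lsp1beta, are of transcripts abundant in the minor snRNA deletions and near 0 in SmnΔ/Δ. The lowest, as in TwdlM, are of transcripts near 0 in the minor snRNA deletions and abundant in SmnΔ/Δ. The counts rest on few libraries, and ranged between 771 genes without SmnΔ/Δ replicate 1 and 4385 without U12Δ/Δ replicate 2. In pooled whole larvae, fewer cells of a type and less RNA per cell cannot be told apart.

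**Figure D1:**
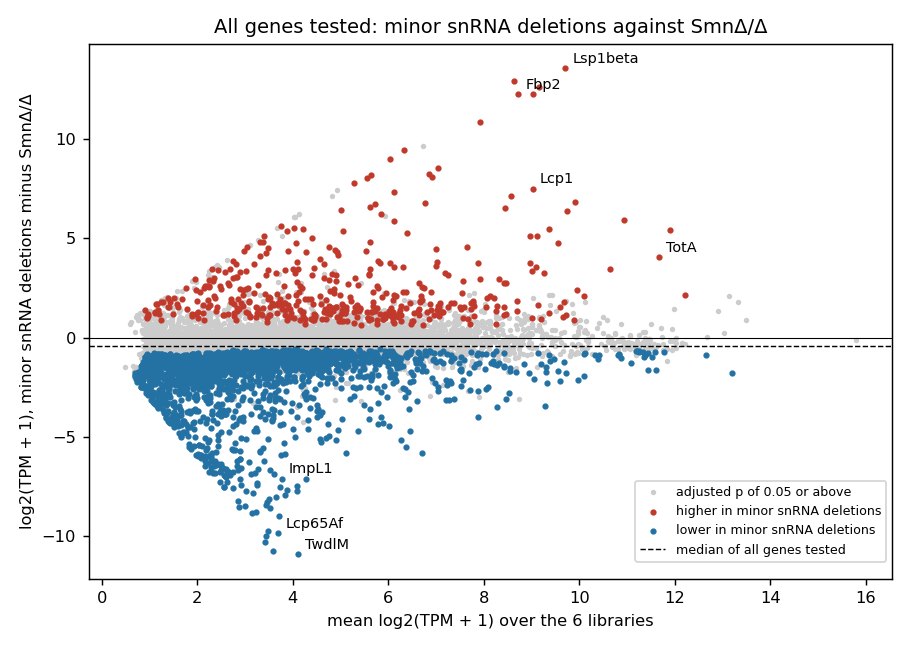
Difference in log2(TPM + 1) between the minor snRNA deletions and SmnΔ/Δ (y axis) against the mean log2(TPM + 1) over the 6 libraries (x axis), one point per gene tested. The 427 genes that were higher are in red and the 2344 that were lower in blue, around a median of −0.45 (dashed line), and Lsp1beta and TwdlM are at the upper and the lower extreme.

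The largest rises in the minor snRNA deletions were the storage and secreted proteins of the late larval fat body. All 6 genes of this list were higher, in TPM and after scaling, and in each of the 6 fits that left out 1 library. Lsp1beta, a subunit of the larval serum protein that the fat body stores for metamorphosis, had 9228 and 29855 TPM in U12Δ/Δ and 22519 and 21456 TPM in U6atacΔ/Δ, against 0.522 and 0.663 TPM in SmnΔ/Δ. WT had 12922 and 26286 TPM. The difference was 13.55 ± 0.45 on the log2 scale (adjusted p = 5.0e-06). Both SmnΔ/Δ libraries were below 1 TPM, and the 4 others were spread around the WT values. Fbp2, a fat body protein of the alcohol dehydrogenase family, had 5604 and 7567 TPM in U12Δ/Δ and 8710.3 and 7129 TPM in U6atacΔ/Δ, against 0.445 and 0.493 TPM in SmnΔ/Δ (difference 12.25 ± 0.23, adjusted p = 5.1e-07). WT had 6327 and 8039 TPM. The other hexamerin subunits followed the same pattern. Lsp1alpha was 12.92 ± 0.43 and Lsp1gamma 12.63 ± 0.47 higher on the log2 scale, and Lsp2 had 1061 and 540.2 TPM in U12Δ/Δ and 492 and 899 TPM in U6atacΔ/Δ, against 0.0241 and 0.0475 TPM in SmnΔ/Δ. Fbp1, the receptor through which the fat body takes hexamerins up again, varied most within the group, with 2722 and 90.5 TPM in U12Δ/Δ and 223 and 1368 TPM in U6atacΔ/Δ, against 0.0345 and 0.01698 TPM in SmnΔ/Δ. WT had 8263 and 5825 TPM. Fbp1 was thus highest in U12Δ/Δ replicate 1 and U6atacΔ/Δ replicate 2, and its 4 libraries were below both WT libraries. Obp99b, a secreted odorant-binding protein, had 13757 and 6658 TPM in U12Δ/Δ and 8855 and 7642 TPM in U6atacΔ/Δ, against 0.402 and 1.29 TPM in SmnΔ/Δ, and the uncharacterized CG42500 had 6488 and 2293 TPM in U12Δ/Δ and 2696 and 1923 TPM in U6atacΔ/Δ, against 0.815 and 0.401 TPM in SmnΔ/Δ. For both genes, both WT libraries were above all 4 libraries of the minor snRNA deletions, with 16810.0 and 17662 TPM for Obp99b. CG13135, uncharacterized, differed from them in that WT lay between the groups, with 1143 and 689 TPM in U12Δ/Δ and 969 and 1034 TPM in U6atacΔ/Δ, against 4.46 and 0.183 TPM in SmnΔ/Δ. WT had 124 and 109 TPM. The fat body markers Lsp1alpha, Lsp1beta, Lsp2, Fbp1 and Fbp2 were thus at or near 0 in the libraries labelled SmnΔ/Δ, which were labelled with the same stage as the others. These 5 markers are among the genes given above and are not a separate result. Cg, also set as a fat body marker, was not matched to a gene by that name. From the transcriptomes, the study placed the SmnΔ/Δ larvae at another stage of the last instar than those of the other strains. Strain and stage thus cannot be told apart in these data.

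**Figure D2:**
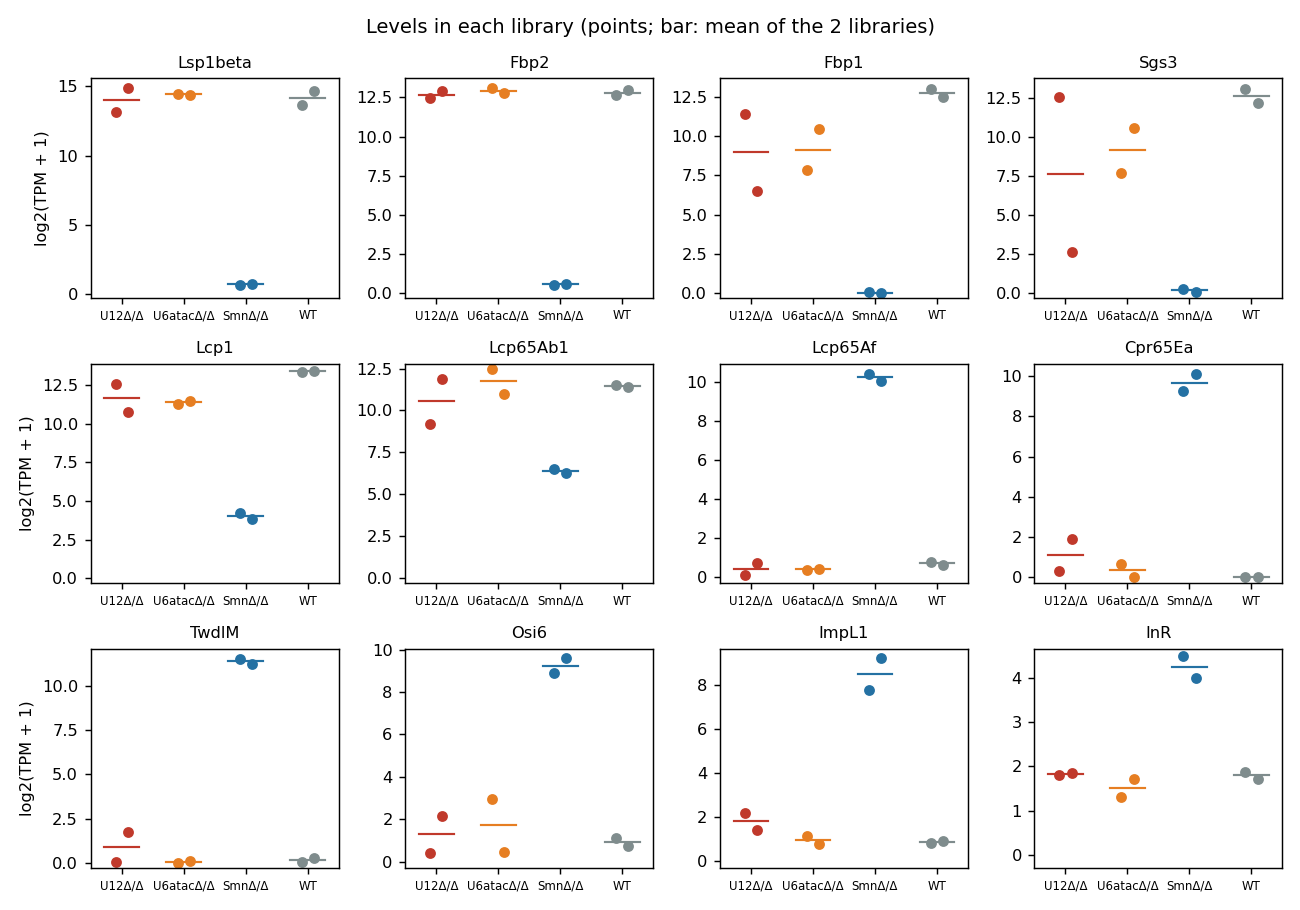
log2(TPM + 1) of 12 genes (y axes, on separate scales) in each library of U12Δ/Δ, U6atacΔ/Δ, SmnΔ/Δ and WT (x axes), with a point per library and a bar at the mean of the strain. The 6 genes from Lsp1beta to Lcp65Ab1 are lowest in both SmnΔ/Δ libraries, and the 6 from Lcp65Af to InR are highest there.

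The glue proteins of the salivary gland, which fix the pupa to its support, lay above both SmnΔ/Δ libraries for all 7 genes, with a wide spread among the 4 libraries. Sgs3 had 6097 and 5.21 TPM in U12Δ/Δ and 210.3 and 1495 TPM in U6atacΔ/Δ, against 0.215 and 0.05305 TPM in SmnΔ/Δ. WT had 8750.2 and 4708 TPM. Sgs4 had 8038 and 19.02 TPM in U12Δ/Δ and 48.9 and 1029.7 TPM in U6atacΔ/Δ, against 0.188 and 0.124 TPM in SmnΔ/Δ. Both were highest in U12Δ/Δ replicate 1 and lowest of the 4 in U12Δ/Δ replicate 2. Sgs3 and Sgs4 passed the threshold in TPM (adjusted p = 0.0489 and 0.0412) and not after scaling (adjusted p = 0.0753 and 0.0631), and the number of glue genes called was 0 without either SmnΔ/Δ library or either U6atacΔ/Δ library and 7 without U12Δ/Δ replicate 2. At an unadjusted p under 0.05 all 7 were higher, and limma's voom on the reads called none of them. Of 4 pre-glue genes, which the salivary gland uses before the glue genes, 3 were lower in TPM and 2 after scaling. ng4 had no read in the 4 libraries of the minor snRNA deletions and 12.98 and 6.39 TPM in SmnΔ/Δ, at least 9.74-fold lower when 3 reads per library are taken as the limit that a count of 0 allows (adjusted p = 5.6e-04), and ng2 had 70.3 and 115 TPM in U12Δ/Δ and 104 and 92.98 TPM in U6atacΔ/Δ, against 450.2 and 408 TPM in SmnΔ/Δ (difference −2.18 ± 0.24, adjusted p = 0.00146). For ng1, with 101 and 118 TPM in U12Δ/Δ and 144 and 151 TPM in U6atacΔ/Δ, against 398 and 361 TPM in SmnΔ/Δ, the call was lost after scaling (adjusted p = 0.0512).

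Of 19 genes of the ecdysone response 2 were higher and 5 lower, beside 3.8% and 20.9% of all genes, and after scaling 3 were higher and 2 lower, beside 7.76% and 8.38%. The largest change was in ImpL1, an ecdysone-inducible late gene, which had 3.62 and 1.703 TPM in U12Δ/Δ and 1.22 and 0.731 TPM in U6atacΔ/Δ, against 219.7 and 599 TPM in SmnΔ/Δ (difference −7.11 ± 0.50, adjusted p = 1.6e-04). WT had 0.811 and 0.898 TPM. ImpE2, an inducible gene of imaginal discs, had 0.6796 and 0.581 TPM in U12Δ/Δ and 1.01 and 0.727 TPM in U6atacΔ/Δ, against 21.9 and 32.8 TPM in SmnΔ/Δ, with the WT libraries apart at 158 and 7.48 TPM (difference −4.00 ± 0.24). ImpE1, with 1.71 and 0.877 TPM in U12Δ/Δ and 0.3904 and 0.216 TPM in U6atacΔ/Δ, against 4.197 and 14.1 TPM in SmnΔ/Δ, and the nuclear receptor Hr4, with 1.12 and 0.105 TPM in U12Δ/Δ and 0.187 and 0.166 TPM in U6atacΔ/Δ, against 2.78 and 4.97 TPM in SmnΔ/Δ, were lower in TPM but lost the call after scaling (adjusted p = 0.0502 and 0.0514) and without U6atacΔ/Δ replicate 1 or SmnΔ/Δ replicate 2. Eip75B, another nuclear receptor, had 11.2 and 8.16 TPM in U12Δ/Δ and 6.0001 and 9.201 TPM in U6atacΔ/Δ, against 17.5 and 15.7 TPM in SmnΔ/Δ, and its call was also lost after scaling (adjusted p = 0.336). The genes that were higher were br (broad), the transcription factor that marks the commitment to metamorphosis, with 16.7 and 8.44 TPM in U12Δ/Δ and 4.57 and 9.26 TPM in U6atacΔ/Δ, against 1.63 and 2.12 TPM in SmnΔ/Δ, and MsrA (Eip71CD), a methionine sulfoxide reductase induced by ecdysone, with 92.3 and 135 TPM in U12Δ/Δ and 112 and 208 TPM in U6atacΔ/Δ, against 22.9 and 62.3 TPM in SmnΔ/Δ. Without U6atacΔ/Δ replicate 2 or SmnΔ/Δ replicate 1 neither of these rises passed the threshold. Of the enzymes that make and break down ecdysone, sro (shroud), an early step of synthesis, was higher, with 16.4 and 8.61 TPM in U12Δ/Δ and 11.4 and 14.7 TPM in U6atacΔ/Δ, against 0.518 and 0.816 TPM in SmnΔ/Δ (difference 3.01 ± 0.28, adjusted p = 6.8e-04), and Cyp18a1, which inactivates the hormone, was lower, with 2.88 and 5.98 TPM in U12Δ/Δ and 3.36 and 6.86 TPM in U6atacΔ/Δ, against 49.2 and 46.5 TPM in SmnΔ/Δ (difference −3.15 ± 0.33, adjusted p = 0.0011). Both calls held after scaling and without each library. The remaining 6 of the 8 genes of this list did not pass the threshold.

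The largest falls were in genes of the cuticle. Of 25 genes tested of the Tweedle family, whose products bind chitin in larval and pupal cuticle and shape the body, 23 were lower, in TPM and after scaling, and 22 or 23 without each library. TwdlM had 0.0417 and 2.33 TPM in U12Δ/Δ and 0 and 0.0548 TPM in U6atacΔ/Δ, against 2939 and 2427 TPM in SmnΔ/Δ (difference −10.92 ± 0.51, adjusted p = 2.2e-05). TwdlH had 0 and 0.0635 TPM in U12Δ/Δ and 0 and 0 TPM in U6atacΔ/Δ, against 1780.1 and 1637 TPM in SmnΔ/Δ. TwdlB had 0 and 0.228 TPM in U12Δ/Δ and 0.0508 and 0.05504 TPM in U6atacΔ/Δ, against 1044 and 1129 TPM in SmnΔ/Δ. TwdlN had 0.237 and 0.376 TPM in U12Δ/Δ and 0 and 0.104 TPM in U6atacΔ/Δ, against 1303 and 778 TPM in SmnΔ/Δ. In WT each of these 4 was between 0 and 1.23 TPM. The minor snRNA deletions and WT were thus at background level for genes that were among the abundant transcripts of SmnΔ/Δ. TwdlK had no read in the 4 libraries and 1312 and 1186 TPM in SmnΔ/Δ, at least 5685-fold lower at the same limit of 3 reads per library. U12Δ/Δ replicate 2 held the highest of the 4 values for TwdlM, TwdlB, TwdlN, TwdlL, TwdlY and Tb, and Tb (Tubby), whose mutants have a short body, had 0 and 0.3399 TPM in U12Δ/Δ and 0 and 0 TPM in U6atacΔ/Δ, against 188 and 559 TPM in SmnΔ/Δ. The median difference of the list was −6.92, also with the genes without reads at that limit, against −0.45 for all genes. All 11 genes tested of the Osiris family, transmembrane proteins of cuticle-secreting epidermis and trachea most of which lie in a cluster on chromosome arm 3R, were lower with or without scaling and in every fit that left out 1 library (median difference −6.82). Osi6 had 0.349 and 3.48 TPM in U12Δ/Δ and 6.82 and 0.367 TPM in U6atacΔ/Δ, against 479 and 766 TPM in SmnΔ/Δ (difference −7.74 ± 0.75, adjusted p = 7.9e-04). Osi14 had 2.29 and 2.89 TPM in U12Δ/Δ and 6.06 and 1.19 TPM in U6atacΔ/Δ, against 461 and 582 TPM in SmnΔ/Δ. For Osi6 the highest of the 4 was U6atacΔ/Δ replicate 1. Osi2 reached 5.23 and 5.58 TPM in U6atacΔ/Δ but 0.198 and 0.772 TPM in U12Δ/Δ, against 440.2 and 663 TPM in SmnΔ/Δ. Another 12 Osiris genes were below the expression limit.

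The Lcp and Cpr families, proteins with the Rebers-Riddiford chitin-binding motif, were split. Of 15 Lcp (larval cuticle protein) genes tested, 7 were higher and 6 lower (7 and 5 after scaling). The rises included Lcp1, Lcp2, Lcp3 and Lcp4, abundant proteins of the last larval cuticle. Lcp1 had 6138 and 1731 TPM in U12Δ/Δ and 2501 and 2830.5 TPM in U6atacΔ/Δ, against 17.4 and 13.6 TPM in SmnΔ/Δ (difference 7.49 ± 0.47, adjusted p = 9.9e-05). WT had 10492 and 10922 TPM. Lcp2 had 1408 and 475 TPM in U12Δ/Δ and 966 and 556 TPM in U6atacΔ/Δ, against 3.22 and 0.571 TPM in SmnΔ/Δ. Lcp9 had 353 and 1092 TPM in U12Δ/Δ and 2311 and 418 TPM in U6atacΔ/Δ, against 2.73 and 1.19 TPM in SmnΔ/Δ. Lcp3 and Lcp4 were also present in SmnΔ/Δ, Lcp4 with 6848 and 17223 TPM in U12Δ/Δ and 19952 and 13308 TPM in U6atacΔ/Δ, against 285 and 347 TPM in SmnΔ/Δ. On the other side, Lcp65Af had 0.0828 and 0.675 TPM in U12Δ/Δ and 0.301 and 0.326 TPM in U6atacΔ/Δ, against 1388 and 1078 TPM in SmnΔ/Δ (difference −9.85 ± 0.24, adjusted p = 2.1e-06). Lcp65Ad had 0.698 and 0.948 TPM in U12Δ/Δ and 1.01 and 0.641 TPM in U6atacΔ/Δ, against 137 and 111 TPM in SmnΔ/Δ. Within the same gene cluster on 3L, Lcp65Ab1 was higher, with 588 and 3789.8 TPM in U12Δ/Δ and 5749.8 and 2055 TPM in U6atacΔ/Δ, against 91.3 and 75.5 TPM in SmnΔ/Δ, and Lcp65Ag1 lower, with 16.4 and 40.5 TPM in U12Δ/Δ and 35.1 and 20.4 TPM in U6atacΔ/Δ, against 1666 and 1447 TPM in SmnΔ/Δ. Lcp65Ab1 and Lcp65Ab2, and Lcp65Ag1, Lcp65Ag2 and Lcp65Ag3, are near-identical copies, and how their reads were shared out is uncertain. Without SmnΔ/Δ replicate 1 the counts fell to 4 higher and 4 lower. Of 54 Cpr genes, 33 were lower and 7 higher (24 and 7 after scaling), with 22 lower and 3 higher without SmnΔ/Δ replicate 1 and 24 and 2 without SmnΔ/Δ replicate 2. Cpr65Ea had 0.239 and 2.704 TPM in U12Δ/Δ and 0.578 and 0 TPM in U6atacΔ/Δ, against 608 and 1115 TPM in SmnΔ/Δ (difference −8.97 ± 0.54, adjusted p = 7.7e-05). Cpr64Ad had 1.52 and 1.15 TPM in U12Δ/Δ and 1.14 and 1.58 TPM in U6atacΔ/Δ, against 534 and 347 TPM in SmnΔ/Δ. Cpr78E was the largest rise, with 1815 and 56.5 TPM in U12Δ/Δ and 253 and 778 TPM in U6atacΔ/Δ, against 1.03 and 1.78 TPM in SmnΔ/Δ (difference 7.32 ± 1.23). WT had 2025 and 2366 TPM. The call was lost without either SmnΔ/Δ library. Its order among the 4 libraries was that of Fbp1 and Sgs3. Of 24 genes of chitin synthesis and assembly, 5 were lower, or 20.8% against 20.9% of all genes (3 after scaling, 0 without SmnΔ/Δ replicate 1), among them the chitinases Cht6, with 2.68 and 9.58 TPM in U12Δ/Δ and 4.18 and 3.93 TPM in U6atacΔ/Δ, against 27.2 and 29.8 TPM in SmnΔ/Δ, and Cht5, with 17.9 and 9.22 TPM in U12Δ/Δ and 7.95 and 11.4 TPM in U6atacΔ/Δ, against 64.2 and 44.1 TPM in SmnΔ/Δ.

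**Figure D3:**
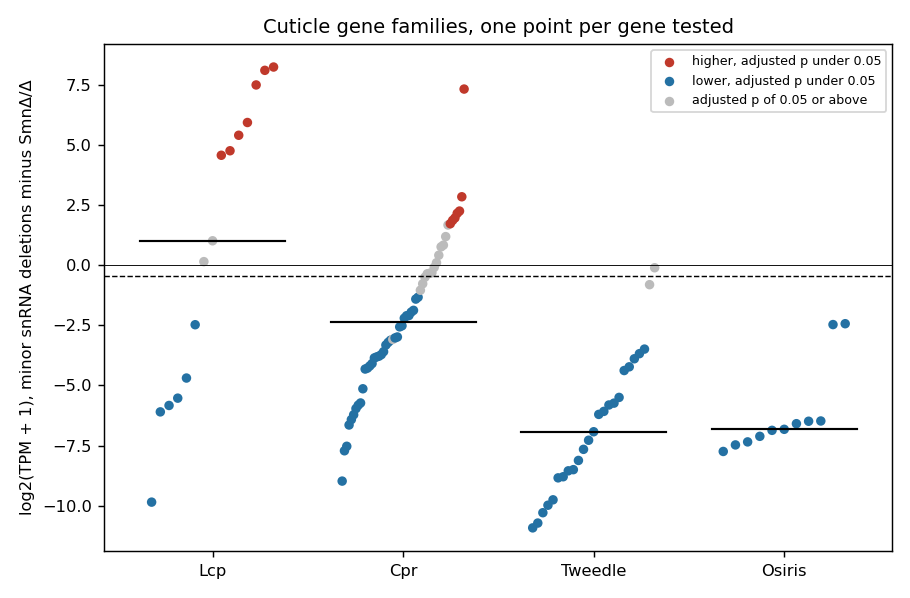
Difference in log2(TPM + 1) between the minor snRNA deletions and SmnΔ/Δ (y axis) for the genes tested of 4 cuticle families (x axis), one point per gene in order of its difference within a family, with the family median (bar) and the median of all genes, −0.45 (dashed line). The Lcp and Cpr genes spread to both sides, and 23 of 25 Tweedle genes and 11 of 11 Osiris genes were lower.

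Of 20 carbohydrases, lipases and lysozymes of the midgut 4 were higher and 2 lower (4 and 1 after scaling), and the call of LysC, which was lower, was lost after scaling and in 5 of 6 fits that left out 1 library. Of 27 serine proteases 5 were higher (6 after scaling), a number that was 2 without U6atacΔ/Δ replicate 1 or SmnΔ/Δ replicate 2 and 8 without U12Δ/Δ replicate 2. Jon66Cii had 1946 and 1901 TPM in U12Δ/Δ and 1638 and 4927 TPM in U6atacΔ/Δ, against 22.8 and 117 TPM in SmnΔ/Δ (difference 5.46 ± 0.69, adjusted p = 0.00262). WT had 2851 and 1152 TPM. Jon44E had 687 and 167 TPM in U12Δ/Δ and 126 and 495 TPM in U6atacΔ/Δ, against 21.1 and 25.4 TPM in SmnΔ/Δ. In the list of carbohydrases, lipases and lysozymes, mag (magro), a gut lipase, had 915 and 607 TPM in U12Δ/Δ and 3625 and 3437 TPM in U6atacΔ/Δ, against 49.02 and 43.1 TPM in SmnΔ/Δ (difference 5.11 ± 0.76, adjusted p = 0.00545). The U6atacΔ/Δ libraries were higher than both U12Δ/Δ libraries for mag. The maltases Mal-A3, Mal-A4 and Mal-A5 were higher, Mal-A4 with 61.3 and 74.97 TPM in U12Δ/Δ and 82.6 and 83.3 TPM in U6atacΔ/Δ, against 23.6 and 5.11 TPM in SmnΔ/Δ, and the lysozyme LysD was lower, with 1.43 and 0 TPM in U12Δ/Δ and 1.84 and 3.06 TPM in U6atacΔ/Δ, against 805 and 383 TPM in SmnΔ/Δ. In WT, LysD had 873 and 0.243 TPM, so that replicate 1 was far above replicate 2, and since LysD is a near-identical copy of other lysozyme genes its level is uncertain.

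Among hormones and growth regulators, InR, the insulin receptor, had 2.48 and 2.58 TPM in U12Δ/Δ and 1.47 and 2.28 TPM in U6atacΔ/Δ, against 21.5 and 14.8 TPM in SmnΔ/Δ (difference −2.57 ± 0.26, adjusted p = 8.6e-04). WT had 2.64 and 2.295 TPM. ImpL2, a secreted antagonist of insulin-like peptides, had 38.2 and 43.9 TPM in U12Δ/Δ and 33.9 and 40.97 TPM in U6atacΔ/Δ, against 239 and 161 TPM in SmnΔ/Δ (difference −2.30 ± 0.23, adjusted p = 8.9e-04). WT had 49.95 and 38.2 TPM. Both were lower with and without scaling and in each fit without 1 library, and their WT levels were with the minor snRNA deletions. Ilp5, an insulin-like peptide of the brain, was higher, with 3.87 and 3.91 TPM in U12Δ/Δ and 4.14 and 6.25 TPM in U6atacΔ/Δ, against 1.62 and 0.862 TPM in SmnΔ/Δ, a call lost without either SmnΔ/Δ library. The calls of Akh, the adipokinetic hormone (6.02, 2.83, 2.82 and 3.37 TPM in the minor snRNA deletions and 12.6 and 11.96 TPM in SmnΔ/Δ), and of sNPF, a neuropeptide, were lost after scaling (adjusted p = 0.0805 and 0.0514). In total 1 of 12 genes was higher and 4 lower, against 1 and 2 after scaling. Of 10 genes of juvenile hormone, the other major larval hormone, the epoxide hydrolase Jheh3 was higher and the methyltransferase jhamt, which completes its synthesis, lower at 1.84, 1.09, 1.16 and 1.05 TPM in the minor snRNA deletions and 3.45 and 3.51 TPM in SmnΔ/Δ. The call of jhamt was lost after scaling (adjusted p = 0.153), and that of Jheh3 in 5 of the 6 fits that left out 1 library.

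The calls among genes of stress and immunity differed in direction between the families listed. The Turandot genes, humoral factors of the fat body induced by stress, were picked after their values were seen, and 4 of 6 were higher with and without scaling (2 without either SmnΔ/Δ library). TotA had 11743 and 10610.0 TPM in U12Δ/Δ and 6434 and 5742 TPM in U6atacΔ/Δ, against 455 and 549 TPM in SmnΔ/Δ (difference 4.04 ± 0.35, adjusted p = 4.5e-04). WT had 1333 and 2298 TPM. TotC had 2660.1 and 2310.5 TPM in U12Δ/Δ and 686 and 647 TPM in U6atacΔ/Δ, against 181 and 103 TPM in SmnΔ/Δ. WT had 27.2 and 10.6 TPM. For both genes WT was nearer SmnΔ/Δ, and the U12Δ/Δ libraries were above both U6atacΔ/Δ libraries. TotE had 1242 and 9.74 TPM in U12Δ/Δ and 312 and 721 TPM in U6atacΔ/Δ, against 0.114 and 0 TPM in SmnΔ/Δ and lost the call in 4 of 6 fits that left out 1 library. Of 23 heat shock genes 9 were lower and 14 did not pass the threshold (7 lower after scaling, 3 without SmnΔ/Δ replicate 1 and 5 without replicate 2, with a median difference of −1.51). Hsp68, an inducible chaperone, had 69.03 and 62.2 TPM in U12Δ/Δ and 76.1 and 91.4 TPM in U6atacΔ/Δ, against 733 and 585 TPM in SmnΔ/Δ (difference −3.13 ± 0.23, adjusted p = 1.9e-04). WT had 211 and 141 TPM. DnaJ-1, its co-chaperone, had 105 and 85.2 TPM in U12Δ/Δ and 126 and 152 TPM in U6atacΔ/Δ, against 508 and 505 TPM in SmnΔ/Δ. Hsp26, a small heat shock protein, had 317 and 119 TPM in U12Δ/Δ and 128 and 293 TPM in U6atacΔ/Δ, against 1571 and 1151 TPM in SmnΔ/Δ. As for every call in TPM, the groups did not overlap for these 3. The falls were 39.1% of the heat shock list in TPM and 30.4% after scaling, against 20.9% and 8.38% of all genes. The 6 Hsp70 genes called are near-identical copies, so that single values are uncertain and their calls are not separate results. Hsp70Bb, one of them, had 3.99 and 1.72 TPM in U12Δ/Δ and 12.6 and 29.1 TPM in U6atacΔ/Δ, against 409 and 169.5 TPM in SmnΔ/Δ. Of 14 antimicrobial peptides 5 were lower (3 after scaling, 2 without either U6atacΔ/Δ library and 0 without SmnΔ/Δ replicate 1). The falls were 35.7% of these peptides in TPM, against 20.9% of all genes, and quantile scaling left 2. Both SmnΔ/Δ libraries differed from each other for these genes, as for Mtk (Metchnikowin), with 34.6 and 1.53 TPM in U12Δ/Δ and 1.55 and 11.2 TPM in U6atacΔ/Δ, against 756 and 84.5 TPM in SmnΔ/Δ, and Def (Defensin), with 0.431 and 0.732 TPM in U12Δ/Δ and 0.522 and 5.51 TPM in U6atacΔ/Δ, against 47.5 and 20.5 TPM in SmnΔ/Δ. The summed level of the list was 8227 and 1470 TPM in SmnΔ/Δ. Of 12 peptidoglycan recognition proteins, also listed after their values were seen, 4 were higher and 1 lower (4 and 0 after scaling), with PGRP-SC1a at 474 and 604 TPM in U12Δ/Δ and 249 and 1024 TPM in U6atacΔ/Δ, against 7.21 and 1.701 TPM in SmnΔ/Δ. The median difference of these proteins was −0.06, and with all 8 libraries in the fit 1 was higher and 2 lower. PGRP-SC1a was split in WT, with 1363 and 0.893 TPM, and without SmnΔ/Δ replicate 2 a single gene of the family passed the threshold.

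Presynaptic and excitability genes of neurons were lower for 12 of 16 genes and higher for 1, against 7 and 1 after scaling, and 3 lower without either SmnΔ/Δ library. The falls were 75% of the list in TPM and 43.8% after scaling, against 20.9% and 8.38% of all genes. Quantile scaling left 3 lower, and an expression limit of 5 TPM, which drops low genes, left 4. cpx (complexin), a clamp of vesicle fusion, had 2.41 and 3.81 TPM in U12Δ/Δ and 1.96 and 3.04 TPM in U6atacΔ/Δ, against 11.7 and 11.2 TPM in SmnΔ/Δ (difference −1.73 ± 0.25, adjusted p = 0.00466). WT had 3.19 and 4.68 TPM. Snap25, a SNARE protein, had 3.69 and 2.97 TPM in U12Δ/Δ and 2.17 and 3.61 TPM in U6atacΔ/Δ, against 10.2 and 12.9 TPM in SmnΔ/Δ. para, the voltage-gated sodium channel, had 0.477 and 0.584 TPM in U12Δ/Δ and 0.322 and 0.543 TPM in U6atacΔ/Δ, against 2.85 and 2.47 TPM in SmnΔ/Δ. All 3 were about as low in WT as in the minor snRNA deletions. The exception was Syt1, the calcium sensor of release, with 37.2 and 39.8 TPM in U12Δ/Δ and 35.2 and 45.5 TPM in U6atacΔ/Δ, against 15.4 and 11.6 TPM in SmnΔ/Δ (difference 1.48 ± 0.21, adjusted p = 0.00433). WT had 39.02 and 39.8 TPM. Syt1 was higher with and without scaling and without each library. The neuronal marker elav had 2.24 and 2.99 TPM in U12Δ/Δ and 1.69 and 2.39 TPM in U6atacΔ/Δ, against 5.82 and 4.79 TPM in SmnΔ/Δ. WT had 5.33 and 5.68 TPM. Its call was lost after scaling (adjusted p = 0.0835). Of the 6 neuronal markers 4 were lower and 1 higher, against 2 and 1 after scaling, and their summed level was 48.2 and 53.6 TPM in U12Δ/Δ, 42.6 and 56.6 TPM in U6atacΔ/Δ, 46.8 and 41.6 TPM in SmnΔ/Δ and 54.8 and 60.5 TPM in WT. Syt1 made up most of this sum in the minor snRNA deletions and WT, but not in SmnΔ/Δ. Without Syt1, a sum formed after the values were seen, the other 5 markers had 11.035 and 13.8 TPM in U12Δ/Δ and 7.38 and 11.1 TPM in U6atacΔ/Δ, against 31.3 and 29.98 TPM in SmnΔ/Δ, with 15.8 and 20.7 TPM in WT. The part of the neuronal share of the RNA in the presynaptic result was not tested. Neither 19 genes of larval muscle nor 5 glutamate receptor subunits of the neuromuscular junction held a gene past the threshold with limma in TPM. At an unadjusted p under 0.05, 1 muscle gene was lower and no receptor, and voom called 1 muscle gene and no receptor. After scaling 1 muscle gene was higher. The 6 muscle markers held no called gene either, in TPM or after scaling, and their summed level was 7396 and 28922 TPM in U12Δ/Δ, 20529 and 16176 TPM in U6atacΔ/Δ, 15846 and 12783 TPM in SmnΔ/Δ and 10184 and 26937 TPM in WT.

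Among genes of the male germ line and testis-biased copies of housekeeping genes, all calls were falls. Most calls over all genes were falls too, with 20.9% of the genes tested lower and 3.8% higher. The falls were 47.1% of the germline list, 28.9% of the ribosomal proteins, 8.33% of the proteasome and 6.49% of the nuclear respiratory chain. After scaling these shares were 11.8%, 6.67%, 8.33% and 2.6%, against 8.38% of all genes. Of 17 germline genes 8 were lower, against 2 after scaling, 0 without SmnΔ/Δ replicate 1, and 15 without U12Δ/Δ replicate 2. nht (no hitter), a testis-specific TAF, had 0.227 and 3.64 TPM in U12Δ/Δ and 1.098 and 0.357 TPM in U6atacΔ/Δ, against 8.95 and 8.44 TPM in SmnΔ/Δ. WT had 3.98 and 4.68 TPM. Mst84Dd, a sperm protein, had 5.18 and 10.4 TPM in U12Δ/Δ and 7.65 and 8.02 TPM in U6atacΔ/Δ, against 25.3 and 26.5 TPM in SmnΔ/Δ. WT had 71.7 and 36.01 TPM. For both, U12Δ/Δ replicate 2 was the highest of the 4, and WT was above the 4. Of 90 cytosolic ribosomal proteins 26 were lower, which scaling reduced to 6, and the median difference of −0.52 was close to the −0.45 of all genes. The 6 that remained were RpL37-2, RpL22-like, RpS19b, RpS5b, RpS10a and RpL24-like. RpL37-2, a copy of RpL37, had 2.55 and 8.998 TPM in U12Δ/Δ and 3.21 and 2.01 TPM in U6atacΔ/Δ, against 44.2 and 38.2 TPM in SmnΔ/Δ. RpS19b had 4.196 and 9.38 TPM in U12Δ/Δ and 5.0005 and 2.29 TPM in U6atacΔ/Δ, against 44.4 and 29.2 TPM in SmnΔ/Δ (difference −2.70 ± 0.44, adjusted p = 0.00793). WT had 26.2 and 20.1 TPM. RpS5b, known from the ovary, had 7.46 and 18.1 TPM in U12Δ/Δ and 9.68 and 5.58 TPM in U6atacΔ/Δ, against 60.4 and 50.4 TPM in SmnΔ/Δ. The proteasome genes that were lower, 4 of 48, were all testis-specific subunits (Rpn12R, Rpt3R, Rpt4R and Rpt6R) and were called after scaling too, though 1 or none remained without either U6atacΔ/Δ or either SmnΔ/Δ library. Rpt6R had 2.56 and 3.76 TPM in U12Δ/Δ and 2.02 and 1.48 TPM in U6atacΔ/Δ, against 12.9 and 7.82 TPM in SmnΔ/Δ. WT had 13.2 and 7.59 TPM. In the respiratory chain, 5 of 77 nuclear genes were lower (2 after scaling), led by ATPsynepsilonL, with 1.67 and 4.29 TPM in U12Δ/Δ and 2.44 and 1.497 TPM in U6atacΔ/Δ, against 23.2 and 18.97 TPM in SmnΔ/Δ (difference −2.73 ± 0.34, adjusted p = 0.00229), which held in each fit that left out 1 library but not as deposited. The 6 testis markers had summed levels of 13.3 and 53.1 TPM in U12Δ/Δ, 18.95 and 23.7 TPM in U6atacΔ/Δ, 56.5 and 49.4 TPM in SmnΔ/Δ and 151 and 108 TPM in WT, and 3 of them were lower in TPM and none after scaling. The sex of the larvae is not given in the labels, and the part of the number of males or of the size of the gonads was not tested.

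Genes of the mitochondrial genome differed in direction. mt:ND6 had 80.6 and 54.2 TPM in U12Δ/Δ and 61.7 and 70.3 TPM in U6atacΔ/Δ, against 11.3 and 7.51 TPM in SmnΔ/Δ (difference 2.71 ± 0.25, adjusted p = 6.0e-04) and mt:ATPase8 had 200.1 and 160.1 TPM in U12Δ/Δ and 200.1 and 198 TPM in U6atacΔ/Δ, against 13.6 and 53.7 TPM in SmnΔ/Δ, while mt:ND1, another subunit of complex I, had 429 and 400.1 TPM in U12Δ/Δ and 511 and 463 TPM in U6atacΔ/Δ, against 1186 and 1321 TPM in SmnΔ/Δ. Of 13 mitochondrial genes 2 were higher and 5 lower, and after scaling 2 were higher and none lower (7 lower at an unadjusted p in TPM, and voom called only the 2 rises). mt:ATPase8 overlaps mt:ATPase6, so that the division of reads between them is uncertain. Of 12 genes of glycolysis 5 lay above both SmnΔ/Δ libraries in TPM without passing the threshold, 5 passed it after scaling and 9 in TPM without U12Δ/Δ replicate 1. Tpi, triose phosphate isomerase, had 505 and 1297 TPM in U12Δ/Δ and 1429 and 1029.5 TPM in U6atacΔ/Δ, against 408 and 367 TPM in SmnΔ/Δ (difference 1.35 ± 0.42, adjusted p = 0.0555 in TPM and 0.0314 after scaling). Of 21 cytochrome P450 genes of family 6, enzymes of detoxification, 5 were higher and 1 lower (6 and 1 after scaling, and 0 and 1 without either SmnΔ/Δ library). Cyp6d2 had 32.5 and 13.5 TPM in U12Δ/Δ and 80.4 and 93.03 TPM in U6atacΔ/Δ, against 4.38 and 3.58 TPM in SmnΔ/Δ, higher in U6atacΔ/Δ than in U12Δ/Δ, and Cyp6a8, the one that was lower in each fit that left out 1 library, had 11.6 and 8.82 TPM in U12Δ/Δ and 6.78 and 10.9 TPM in U6atacΔ/Δ, against 91.6 and 50.6 TPM in SmnΔ/Δ. Glutathione transferases were higher for 3 of 33 (6 after scaling), as GstT4 with 206 and 275 TPM in U12Δ/Δ and 263 and 209 TPM in U6atacΔ/Δ, against 126 and 116 TPM in SmnΔ/Δ. DNA replication and mitosis had no gene past the threshold among 23, none at an unadjusted p under 0.05, none by voom and 1 higher after scaling. Without U12Δ/Δ replicate 2, 5 of them were lower, and 3 were higher with quantile scaling and 4 with each gene's values centred by its 10 neighbours in the tables.

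The 15 host genes of U12-type introns were tested for the level of their whole transcripts, since the values per gene do not tell spliced from unspliced RNA. The list was chosen by the study for splicing in these strains and is not independent evidence of its direction. In TPM 3 hosts were higher (Kcmf1, nmo and Epac) and 1 lower (Phb2), and after scaling 5 were higher, with Syx6 and Sf3a1 in addition, and none lower. In TPM this is 20% higher and 6.67% lower, against 3.8% and 20.9% of all genes. After scaling 7.76% of all genes were higher and 8.38% lower. The count of rises was 1 without SmnΔ/Δ replicate 1 and 0 without replicate 2. Kcmf1 had 149.9 and 169.9 TPM in U12Δ/Δ and 167 and 238 TPM in U6atacΔ/Δ, against 74.1 and 60.2 TPM in SmnΔ/Δ (difference 1.40 ± 0.24, adjusted p = 0.00971). WT had 68.6 and 89.6 TPM. nmo had 17.9 and 13.8 TPM in U12Δ/Δ and 13.2 and 20.4 TPM in U6atacΔ/Δ, against 6.78 and 5.71 TPM in SmnΔ/Δ (difference 1.24 ± 0.24, adjusted p = 0.0139). WT had 11.5 and 7.74 TPM. Epac, a guanine nucleotide exchange factor activated by cAMP, had 8.297 and 11.4 TPM in U12Δ/Δ and 16.9 and 13.7 TPM in U6atacΔ/Δ, against 5.39 and 4.36 TPM in SmnΔ/Δ. WT had 2.95 and 2.104 TPM. For these 3 the 4 libraries were above both SmnΔ/Δ and both WT libraries. Phb2 (prohibitin 2), a scaffold of the inner mitochondrial membrane, had 40.97 and 64.9 TPM in U12Δ/Δ and 35.5 and 44.9 TPM in U6atacΔ/Δ, against 106 and 104 TPM in SmnΔ/Δ (difference −1.19 ± 0.27, adjusted p = 0.0215 in TPM and 0.0549 after scaling). WT had 102 and 105 TPM. Sf3a1, whose intron starts with GCATCCT, had 19.3 and 29.8 TPM in U12Δ/Δ and 25.1 and 34.2 TPM in U6atacΔ/Δ, against 18.9 and 15.3 TPM in SmnΔ/Δ (adjusted p = 0.125 in TPM and 0.0185 after scaling), and pros had 1.96 and 1.29 TPM in U12Δ/Δ and 1.31 and 3.504 TPM in U6atacΔ/Δ, against 0.946 and 0.9005 TPM in SmnΔ/Δ, with WT higher at 4.07 and 3.82 TPM (adjusted p = 0.213). Zdhhc8, a palmitoyltransferase, was lower in both U12Δ/Δ than in both U6atacΔ/Δ libraries, with 8.49 and 12.5 TPM in U12Δ/Δ and 35.2 and 47.9 TPM in U6atacΔ/Δ, against 15.98 and 9.92 TPM in SmnΔ/Δ. In the plot of the hosts the same order holds for Epac, and the libraries of both strains overlap for Kcmf1, nmo, Phb2, Sf3a1 and pros. No host gene passed the threshold in the direct comparison of both strains.

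**Figure D4:**
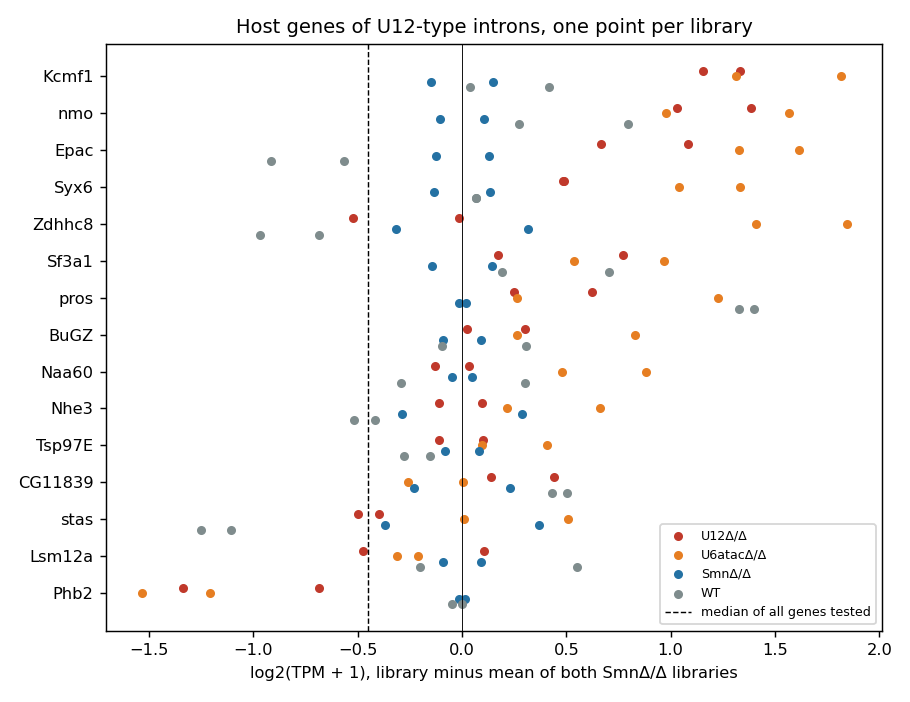
log2(TPM + 1) of each library minus the mean of both SmnΔ/Δ libraries (x axis) for the 15 host genes of U12-type introns (y axis), one point per library of U12Δ/Δ, U6atacΔ/Δ, SmnΔ/Δ and WT, with the median difference of all genes, −0.45, as a dashed line. The 4 points of the minor snRNA deletions lie right of both SmnΔ/Δ points for 6 hosts, among them Kcmf1, nmo and Epac, and left of them for 1, Phb2.

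Host genes of the remaining sensitive introns form a list that was also chosen on these libraries. Of its 42 genes tested, 8 were lower in TPM, or 19.0% against 20.9% of all genes, and 17 without U12Δ/Δ replicate 2. After scaling 3 were lower and 2 higher. sick (sickie) had 3.98 and 6.99 TPM in U12Δ/Δ and 2.91 and 3.84 TPM in U6atacΔ/Δ, against 16.9 and 15.1 TPM in SmnΔ/Δ (difference −1.70 ± 0.30, adjusted p = 0.0106). WT had 2.69 and 3.399 TPM. Its call was lost without either SmnΔ/Δ library, without which at most 1 gene of the list was called. A further list holds candidates for rescue. Among its 17 genes tested, Fas3, Pdk1 and Cnb were lower, or 17.6% against 20.9% of all genes, and 6 were without U12Δ/Δ replicate 2. After scaling Fas3 was lower and Got2 higher, with 0 of the 17 lower without either SmnΔ/Δ library. Fas3 (Fasciclin 3), a cell adhesion protein of the neuromuscular junction, had 9.29 and 11.5 TPM in U12Δ/Δ and 7.92 and 9.45 TPM in U6atacΔ/Δ, against 20.8 and 25.1 TPM in SmnΔ/Δ (difference −1.19 ± 0.21, adjusted p = 0.0107). WT had 23.6 and 17.6 TPM. For Fas3, one SmnΔ/Δ library lay between both WT libraries and the other above them. Zmynd10, a dynein assembly factor, had 1.75 and 6.05 TPM in U12Δ/Δ and 2.22 and 1.85 TPM in U6atacΔ/Δ, against 10.4 and 6.995 TPM in SmnΔ/Δ. WT had 13.9 and 10.3 TPM. The adjusted p was 0.0519, and the gene passed the threshold without U12Δ/Δ replicate 2. Pcyt2, of phosphatidylcholine synthesis, had 3.75 and 7.95 TPM in U12Δ/Δ and 12.9 and 5.19 TPM in U6atacΔ/Δ, against 8.203 and 6.45 TPM in SmnΔ/Δ (difference −0.09 ± 0.42, adjusted p = 0.889) and CG10171 had 22.04 and 25.7 TPM in U12Δ/Δ and 14.9 and 16.2 TPM in U6atacΔ/Δ, against 16.8 and 20.3 TPM in SmnΔ/Δ (adjusted p = 0.894), so that the groups overlapped for both. CG16984 was below the expression limit, at 0, 0.151, 0.403 and 0.0971 TPM in the minor snRNA deletions and 0 and 0.253 TPM in SmnΔ/Δ. Of 14 genes of the SMN complex and the Sm proteins, 1 was lower in TPM, SmF, with 28.8 and 38.3 TPM in U12Δ/Δ and 28.7 and 30.1 TPM in U6atacΔ/Δ, against 54.2 and 59.8 TPM in SmnΔ/Δ, and none after scaling (3 lower at an unadjusted p in TPM, and voom called none). Of 10 genes of nonsense-mediated decay Smg5 was lower in TPM and none after scaling, with 4 at an unadjusted p in TPM.

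**Figure D5:**
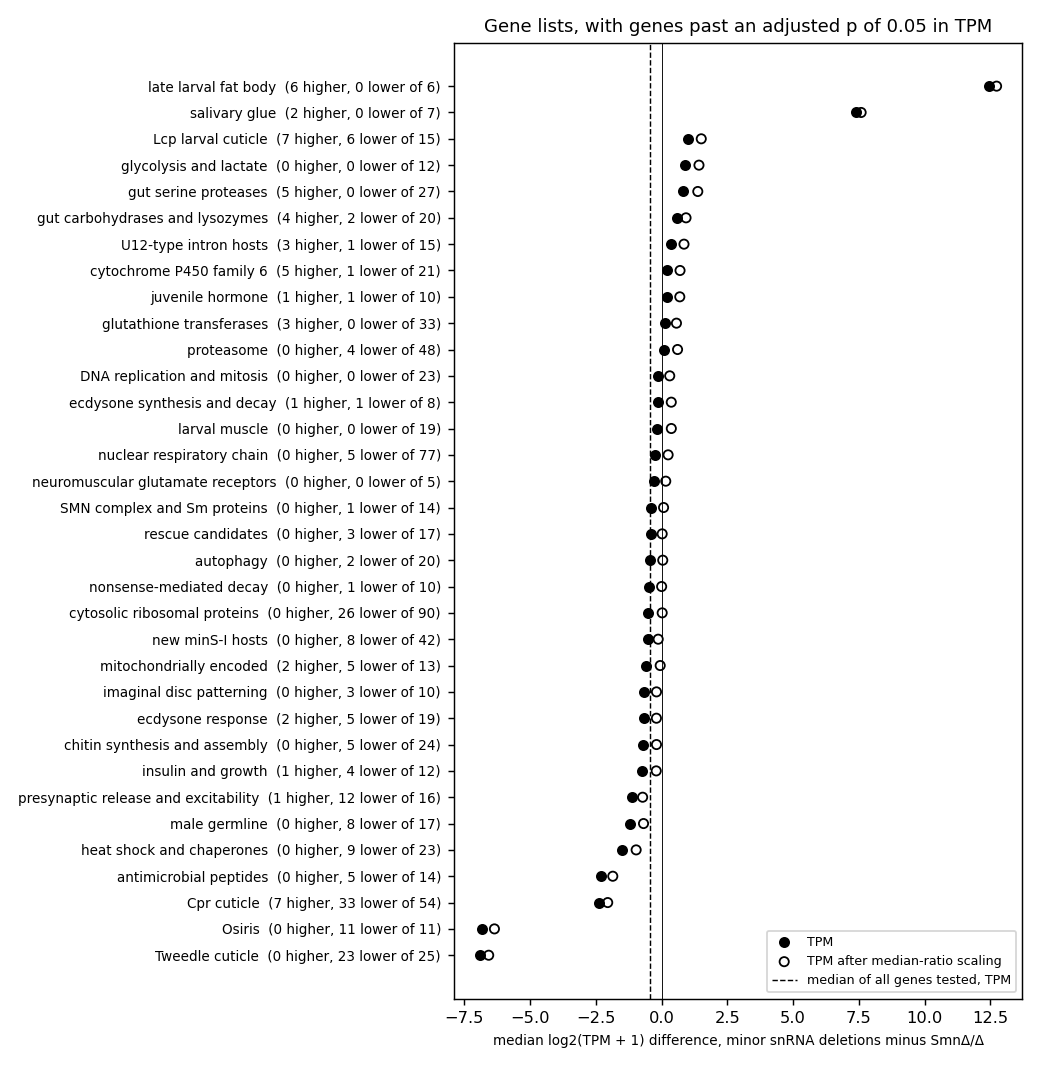
Median difference in log2(TPM + 1) between the minor snRNA deletions and SmnΔ/Δ (x axis) for the gene lists with at least 5 genes tested (y axis), in TPM (filled) and after median-ratio scaling (open), with the number of genes past an adjusted p of 0.05 in TPM beside each name and the median of all genes, −0.45, as a dashed line. The lists of cell type markers, Turandot genes and peptidoglycan recognition proteins are not shown. The late larval fat body list is at the right end, with 6 of 6 genes higher, and the Tweedle and Osiris lists are at the left end.

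Each strain was also set against SmnΔ/Δ alone, in one fit with 3 strains. In U12Δ/Δ 280 genes were higher and 893 lower, and in U6atacΔ/Δ 425 higher and 1908 lower, which is 2.49%, 7.95%, 3.78% and 17.0% of the genes tested. Both comparisons share the SmnΔ/Δ libraries. Lsp1beta differed by 13.35 in U12Δ/Δ and 13.75 in U6atacΔ/Δ, TwdlM by −10.49 and −11.35, and InR by −2.42 and −2.73 on the log2 scale. When U12Δ/Δ was compared with U6atacΔ/Δ directly, 2 genes were higher in U12Δ/Δ and 5 lower (0.0178% and 0.0445% of the genes tested). These 7, which were singled out after their values were seen, were CG10029 and TotF, which were higher, and CG14715, CG15534, Muc55B, LysE and lncRNA:CR46123, which were lower. CG14715 had 5.24 and 7.85 TPM in U12Δ/Δ and 69.8 and 73.95 TPM in U6atacΔ/Δ, against 72.8 and 77.4 TPM in SmnΔ/Δ and 53.4 and 84.1 TPM in WT (difference −3.29 ± 0.25, adjusted p = 0.0258). The U6atacΔ/Δ, SmnΔ/Δ and WT libraries overlapped, and both U12Δ/Δ libraries were below all of them. Muc55B, a mucin, had 77.4 and 42.6 TPM in U12Δ/Δ and 1730.4 and 2001 TPM in U6atacΔ/Δ, against 336 and 197 TPM in SmnΔ/Δ (difference −4.99 ± 0.39, adjusted p = 0.0258). At an unadjusted p under 0.05 the strains differed for 755 genes, and the count of calls was 0 without either U6atacΔ/Δ or either SmnΔ/Δ library and 22 and 24 without U12Δ/Δ replicate 1 and replicate 2.

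Among the genes called in both scalings, the WT mean was nearer to the minor snRNA deletions for 326 of 419 that were higher and 791 of 933 that were lower, and nearer to SmnΔ/Δ for 93 and 142. Of the genes called both in TPM and after scaling, both WT libraries were beyond both SmnΔ/Δ libraries on the side of the minor snRNA deletions for 370 of 419 that were higher and 860 of 933 that were lower. These counts include genes with WT between the groups. They and the positions of WT given next are of log2(TPM + 1) after median-ratio scaling. The levels printed are unscaled TPM. Both WT libraries lay below all 4 libraries for 157 of the 419, with the WT mean nearer to that of SmnΔ/Δ for 84, and above all 4 for 192 of the 933, nearer SmnΔ/Δ for 120. The genes with WT nearer SmnΔ/Δ that were higher included TotA, TotB, TotC, CG11313, CG11893 and Ugt37A3. The uncharacterized CG11313 had 271 and 363 TPM in U12Δ/Δ and 194 and 198 TPM in U6atacΔ/Δ, against 2.25 and 0.722 TPM in SmnΔ/Δ. WT had 80.9 and 8.55 TPM. Without scaling, its mean log2(TPM + 1) in WT was slightly nearer the minor snRNA deletions. CG11893, also uncharacterized, had 93.9 and 98.3 TPM in U12Δ/Δ and 153 and 121 TPM in U6atacΔ/Δ, against 1.90 and 1.62 TPM in SmnΔ/Δ. WT had 6.21 and 6.15 TPM. Ugt37A3, a UDP-glycosyltransferase, had 40.4 and 122 TPM in U12Δ/Δ and 399 and 237 TPM in U6atacΔ/Δ, against 6.16 and 2.93 TPM in SmnΔ/Δ. WT had 44.5 and 7.42 TPM, so that WT replicate 1 was above U12Δ/Δ replicate 1 before scaling. Those that were lower included genes of the male germ line such as Tpl94D, besides ATPsynepsilonL and RpS19b. Tpl94D, a transition protein of sperm chromatin, had 0.144 and 0.157 TPM in U12Δ/Δ and 0.209 and 0 TPM in U6atacΔ/Δ, against 7.65 and 6.91 TPM in SmnΔ/Δ. WT had 4.61 and 6.38 TPM. These genes were chosen after their values were seen.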

How the data were processed

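Per the labels and the methods of the study, mRNA from pooled whole larvae was sequenced in 2 libraries of each of 4 strains. The authors deposited 1 table of TPM values per library, and the submitters' processing notes name TopHat2, featureCounts and dm6. The deposited TPM values were not read counts over the gene's own length. A length list of 17771 entries had been recycled down tables of 17473 genes, 298 entries out of step. With that list 99.8% of values up to a set read count gave whole reads, within 0.01 and a small margin that rose with the count. Lengths at 283 positions were then solved by a search for whole reads. That all values were whole afterwards is thus no check of the recovery. The 120 read counts that 24 gene entries also hold were equal to the recovered reads. TPM was recomputed from these reads and each gene's length, without 23 genes that have no length, a step chosen after seeing the data.

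Genes with a mean of at least 1 TPM over the 6 libraries were tested with limma 3.58.1 (R 4.3.3) on log2(TPM + 1), with a trended variance and Benjamini-Hochberg adjustment over all genes tested, and called at an adjusted p under 0.05. Differences are given ± SE from that fit. A single gene cannot pass an exact permutation test of 4 against 2 libraries, whose smallest p is 0.133 two-sided. Tables and plots were made with Python 3.11.15, numpy 2.4.6, pandas 2.3.3 and matplotlib 3.10.9. On simulated counts for this comparison over 11235 genes, 26 of 33 genes changed by −1 on the log2 scale and 35 of 36 changed by −2 were called, with 22 false calls. These counts had a single dispersion of 0.0307 for every gene and library, and few changed genes. In the data the spread between replicates differed by strain, so these shares are not the power of this comparison.

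Alternatives were a pseudocount of 0.1, no expression limit or one of 5 TPM, median-ratio and quantile scaling, centring each gene by its 10 neighbours in the tables, other sets of libraries, a replicate block, no variance trend, and leaving out each library. The deposited values and limma's voom on the recovered reads were added after seeing the data. The genes named are the 15 largest rises and 15 largest falls among called genes without overlap, up to 4 members of each gene list by size of change with any needed to describe it, and the genes the study names for its RNA data. Members and lists were chosen with earlier results of these data known.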

Additional observations from a re-analysis of the deposited data

Results flagged for a closer look

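Of 150 named genes, 16 had 1 of the 4 libraries of the minor snRNA deletions far from the other 3 on the log2(TPM + 1) scale, measured as its gap to the nearest divided by the range of the 4, against Dixon's 95% critical value, which chance passes in about 1 of 20 groups. U12Δ/Δ replicate 2 was the one apart for TwdlM (gap 0.956), TwdlH (1.0), TwdlL (0.905), TwdlJ (1.0), Tb (1.0), Zmynd10 (0.831), Rpt3R (0.882), mt:ATPase8 (0.955) and SmF (0.843). It was the highest of the 4 for each of these except mt:ATPase8, where it was the lowest. U12Δ/Δ replicate 1 was apart for Hr4 (0.89) and jhamt (0.836), as the highest, and for Gapdh2 (0.833), as the lowest. U6atacΔ/Δ replicate 2 was the highest for Jon66Cii (0.844), Def (0.874) and Atg101 (0.904), and U6atacΔ/Δ replicate 1 for TwdlO (0.921). The Tweedle genes, except in U12Δ/Δ replicate 2 for TwdlM, were all under 1 TPM in the 4 libraries.

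U12Δ/Δ and U6atacΔ/Δ differed from each other for 7 genes by limma with Benjamini-Hochberg adjustment over all genes, the test of the difference between their effects against SmnΔ/Δ. On the log2 scale TotF was 3.24 and CG10029 3.94 higher in U12Δ/Δ (adjusted p = 0.0239 and 0.0173). The difference was −3.29 for CG14715, −4.92 for CG15534, −4.99 for Muc55B, −2.79 for LysE and −5.62 for lncRNA:CR46123 (adjusted p between 0.0173 and 0.038). Each strain had 2 libraries, and both of one strain lay on one side of both of the other. LysE is a near-identical copy of other lysozyme genes.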

How the results depend on the processing

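The counts of calls depended on the scaling, the values and single libraries more than on the pseudocount, the expression limit or the variance trend. In total 2771 genes were called, against 1797 with median-ratio scaling, 1676 with voom and 207 with the values as deposited, and between 771 and 4385 when 1 library was left out. The 1352 genes also called with median-ratio scaling are 48.8% of the 2771 and 75.2% of the 1797, and the 198 also called with the deposited values are 7.15% and 95.7% of each set. Higher genes numbered 864 with median-ratio scaling, 1078 with quantile scaling, 1211 when centred by the 10 neighbours of each gene in the tables, 697 with voom, 28 as deposited, and 161 to 504 without 1 library. Lower genes numbered 933, 952, 1219, 979 and 179 in these settings, and 610 to 3881 without 1 library. Genes with all 4 libraries above both SmnΔ/Δ libraries numbered 2752 (median-ratio), 3008 (quantile), 2822 (centred) and 2467 (voom), and genes below numbered 2361, 2274, 2647 and 2331, and 1856 as deposited. For U12Δ/Δ against SmnΔ/Δ, 86 genes were called as deposited and 512 to 3000 without 1 library. For U6atacΔ/Δ, 1437 were called with quantile scaling, 1402 with voom, 84 as deposited and 285 to 4353 without 1 library. For U12Δ/Δ against U6atacΔ/Δ, 7 genes were called, against 1 with a pseudocount of 0.1, 0 with no expression limit, 17 with median-ratio scaling, 3 with 8 libraries, 12 when centred, 17 with voom, 0 as deposited and 0 to 24 without 1 library. The deposited values and voom were chosen after seeing the data, and beyond the divisors of the deposited values the cause was not tested.

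The replicate numbers are shared by the labels only. The deviations of same-numbered libraries correlated at −0.40 between U12Δ/Δ and U6atacΔ/Δ, −0.04 between U12Δ/Δ and SmnΔ/Δ and 0.02 between U6atacΔ/Δ and SmnΔ/Δ. With the replicate block 2054 genes were called for the minor snRNA deletions, 739 for U12Δ/Δ, 1248 for U6atacΔ/Δ and 0 for U12Δ/Δ against U6atacΔ/Δ. With the pairing crossed, 16 genes were called in the last of these comparisons.

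Some genes changed sign. Pcyt2 was 0.39 with median-ratio scaling, 0.54 with quantile scaling, 0.87 when centred, 0.41 with voom, 1.79 as deposited, and between −0.37 and 0.15 without 1 library. CG10171 was −1.05 as deposited and between −0.079 and 0.18 without 1 library. With quantile scaling snRNA:U12 was 0.045 and GluRIIB 0.17, and when centred GluRIIB was 0.047, TpnC47D 0.11, Gapdh1 −0.14 and hydra 0.53. As deposited, GluRIIB was 0.89, sNPF 0.02, Zasp66 −0.33, nSyb 0.47, wg 0.16, PyK −0.54, GstT4 −4.60, GstE12 −0.42, Cnb 0.46 and para 0.26.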

Other observations

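Some gene groups had few calls and stand outside the comparisons above. Of 10 patterning genes of the imaginal discs, the larval precursors of adult appendages, 3 were lower in TPM and 0 after scaling (4 lower at an unadjusted p in TPM). wg (wingless), the Wnt ligand, had 1.65 and 1.84 TPM in U12Δ/Δ and 1.12 and 1.12 TPM in U6atacΔ/Δ, against 4.07 and 4.07 TPM in SmnΔ/Δ. WT had 4.95 and 3.74 TPM. nub (nubbin), a transcription factor of the wing, had 2.13 and 1.605 TPM in U12Δ/Δ and 2.43 and 3.46 TPM in U6atacΔ/Δ, against 8.41 and 5.65 TPM in SmnΔ/Δ. WT had 4.29 and 3.28 TPM. Both calls were lost without either SmnΔ/Δ library. Of 20 autophagy genes 2 were lower in TPM and 1 higher after scaling. Atg12, a ubiquitin-like protein of autophagosome growth, had 8.25 and 7.35 TPM in U12Δ/Δ and 6.44 and 11.4 TPM in U6atacΔ/Δ, against 24.1 and 22.95 TPM in SmnΔ/Δ, a call lost without either SmnΔ/Δ library.

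Eig71Ee, a late salivary gland gene, had 1122 and 0.865 TPM in U12Δ/Δ and 43.6 and 206 TPM in U6atacΔ/Δ, against 0 and 0 TPM in SmnΔ/Δ. WT had 801 and 642 TPM. It had no read in SmnΔ/Δ, and U12Δ/Δ replicate 1 was the highest of the 4. CtsL3, a cathepsin, and Adh, the alcohol dehydrogenase of the fat body, also had no read in SmnΔ/Δ. CtsL3 had 191 and 70.8 TPM in U12Δ/Δ and 12.6 and 31.4 TPM in U6atacΔ/Δ, against 0 and 0 TPM in SmnΔ/Δ, at least 99.0-fold higher when 3 reads per library are taken as the limit, and Adh had 1.68 and 1.04 TPM in U12Δ/Δ and 12.6 and 8.58 TPM in U6atacΔ/Δ, against 0 and 0 TPM in SmnΔ/Δ, at least 13.04-fold higher, with 0.7198 and 1.48 TPM in WT. Both were chosen after their values were seen.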
